A study of Mus musculus with 13 samples.

Results

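The genes that release calcium in a muscle fibre and pump it back were followed in quadriceps muscle of 13 mice, 1 microarray per animal. The list of 10 names held Cacna1s, Cacng1, Ryr1, Jph1, Casq1, Casq2, Atp2a1, Atp2a2, Sln and Pvalb, and every probe set that the array annotation assigns to these genes was taken. Probe sets were found for 9 of the 10 genes, 13 probe sets of the 45037 non-control probe sets on the array. Sln, which encodes sarcolipin, a small inhibitor of the calcium pump, had none in that annotation and was not analysed here. These 9 genes stood among 17097 genes with a usable probe set.

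All animals were male C57Bl/6 mice 4 months of age, kept on standard chow. There were 3 SKM-KO animals with 3 C animals, and 4 SKM-Tg animals with 3 Wt animals. The series was designed around ablation and gain of function of DOR, an earlier name of Trp53inp2, in skeletal muscle, and SKM-KO was read as the ablation and SKM-Tg as the gain of function. The labels do not pair the groups, and by their names SKM-KO was set against C and SKM-Tg against Wt. The labels give neither the promoter behind the deletion or the transgene nor the alleles that C and Wt carry, and each array holds whole muscle, so fewer cells of a type and less RNA per cell cannot be told apart.

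In a skeletal muscle fibre, an action potential runs down the transverse tubules and moves the voltage sensor, a calcium channel whose pore-forming subunit is Cacna1s and whose gamma subunit is Cacng1. The sensor is mechanically coupled to Ryr1, the release channel of the sarcoplasmic reticulum, at junctions held together by junctophilin 1 (Jph1). Inside the reticulum the calsequestrins Casq1 and Casq2 bind the stored calcium, with Casq1 the main form of fast fibres and Casq2 the form of heart and slow fibres. After the contraction the SERCA pumps return calcium to the store, Atp2a1 being the fast-fibre pump and Atp2a2 the pump of slow fibres and heart, while parvalbumin (Pvalb) buffers calcium in the cytosol of fast fibres.

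The promoters of 3 members are shown because of how their signals varied from animal to animal, as described further on. Casq1 and Cacna1s rose and fell together, and Casq2 is the calsequestrin that varied with the slow-fibre pump. Each is the RefSeq window from 250 bases before to 50 bases after the annotated start on build GRCm38.p6, 5′ to 3′ on the strand of the gene, at chr1:172219846-172220145 (minus strand) for Casq1, chr1:136052561-136052860 (plus strand) for Cacna1s and chr3:102086165-102086464 (plus strand) for Casq2.
Casq1: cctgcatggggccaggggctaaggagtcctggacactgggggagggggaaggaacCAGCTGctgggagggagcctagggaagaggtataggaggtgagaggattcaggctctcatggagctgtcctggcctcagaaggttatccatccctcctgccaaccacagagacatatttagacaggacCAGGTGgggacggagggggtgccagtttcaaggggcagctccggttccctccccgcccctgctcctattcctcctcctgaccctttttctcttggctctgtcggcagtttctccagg
Cacna1s: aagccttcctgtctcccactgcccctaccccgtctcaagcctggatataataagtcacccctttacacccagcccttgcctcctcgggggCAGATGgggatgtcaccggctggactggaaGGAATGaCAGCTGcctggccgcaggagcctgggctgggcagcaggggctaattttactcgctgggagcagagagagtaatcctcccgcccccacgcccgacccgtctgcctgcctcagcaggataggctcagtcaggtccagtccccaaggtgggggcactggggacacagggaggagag
Casq2: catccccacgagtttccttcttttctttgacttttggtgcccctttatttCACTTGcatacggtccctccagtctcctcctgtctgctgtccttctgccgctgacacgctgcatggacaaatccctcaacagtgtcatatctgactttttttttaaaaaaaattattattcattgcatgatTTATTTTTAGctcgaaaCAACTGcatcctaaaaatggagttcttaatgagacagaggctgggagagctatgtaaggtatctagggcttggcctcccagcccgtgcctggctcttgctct
Capitals mark matches, on either strand, to 4 motifs known from muscle promoters: the E-box (CANNTG), the MCAT motif (CATTCC), the MEF2 site and the CArG box. Casq1 held 2 E-boxes, Cacna1s 2 E-boxes and 1 MCAT motif, and Casq2 2 E-boxes and 1 MEF2 site, and none of these matches overlap. Among 32851 promoter windows of the same length, 72.3% held an E-box, 14.7% an MCAT motif, 3.19% a MEF2 site and 1.63% a CArG box, so an E-box match is common anywhere. RefSeq windows were at hand for 6 members. Of the windows not printed, that of Atp2a1 held 1 E-box, the 2 of Pvalb held 2 E-boxes in one and a MEF2 site in the other, and that of Ryr1 held no match to the 4 motifs. A match is a description of the letters in the window and says nothing of what binds there.

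Signals are log2 values made by RMA, so a step of 1 is a doubling, and the array medians lay between 4.851 and 4.936. The targeted gene, Trp53inp2, had 8.58, 8.79 and 8.99 in SKM-KO against 11.06, 11.19 and 11.15 in C, and fell by 2.35 on the log2 scale (SE 0.11, limma adjusted p = 0.000903). It had 11.11, 11.03, 11.28 and 11.24 in SKM-Tg against 11.2, 11.46 and 11.0 in Wt (-0.06, adjusted p = 0.954), so SKM-Tg gave no higher signal. Which transcript the transgene makes and whether the probes match it are not given in the sources used here, and a direction read from SKM-Tg is that of the arrays labelled so. All 9 measured skeletal muscle markers of a list of 10 passed the signal filter, with means between 10.92 (Des) and 12.78 (Acta1). Of the 8 measured heart markers 3 passed it, Myl4 (7.35), Pln (6.91) and Tnnt2 (6.1), while Nppa, Nppb, Myl7, Tnni3 and Ryr2 lay below it. The Wt animals were not alike: Wt animals 1 and 2 stood apart from Wt animal 3 in several calcium genes described below. Leaving out Wt animal 3 mattered far beyond these genes. Without it, Wt minus C had a limma adjusted p under 0.05 for 39.6% of all genes tested and 22.2% of the 9 listed genes.

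None of the 9 genes passed the test in SKM-KO against C or in SKM-Tg against Wt, and the intervals below give the sizes of change that the arrays leave possible. In SKM-KO minus C, limma called 0 of the 9 at an adjusted p under 0.05, where it called 0.00961% of the 10411 genes tested, and 0 of the 9 had an unadjusted p under 0.05 (2.74% of all genes). In SKM-Tg minus Wt it also called 0 of the 9, with 0.0% of all genes called, and again 0 of the 9 had an unadjusted p under 0.05 (2.85% of all genes). In neither comparison was any of the 9 genes without overlap between its groups, against 7.49% and 3.97% of all genes. All 9 genes passed the filter on low signals, a mean of at least 4.904, the median of all non-control probe sets. At the probe set level 12 of the 13 passed it, and 0 of the 12 were called in SKM-KO minus C (0.00888% of 22519 probe sets) or in SKM-Tg minus Wt (0.0%). In SKM-KO minus C, 0 of the 12 had an unadjusted p under 0.05 (2.58% of all probe sets) and 0 were without overlap (7.29%), and in SKM-Tg minus Wt likewise 0 (2.59%) and 0 (3.69%). The 13th, Atp2a2 probe set 1443551_PM_at, ranged from 2.84 to 3.29 over the arrays.

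**Figure D1:**
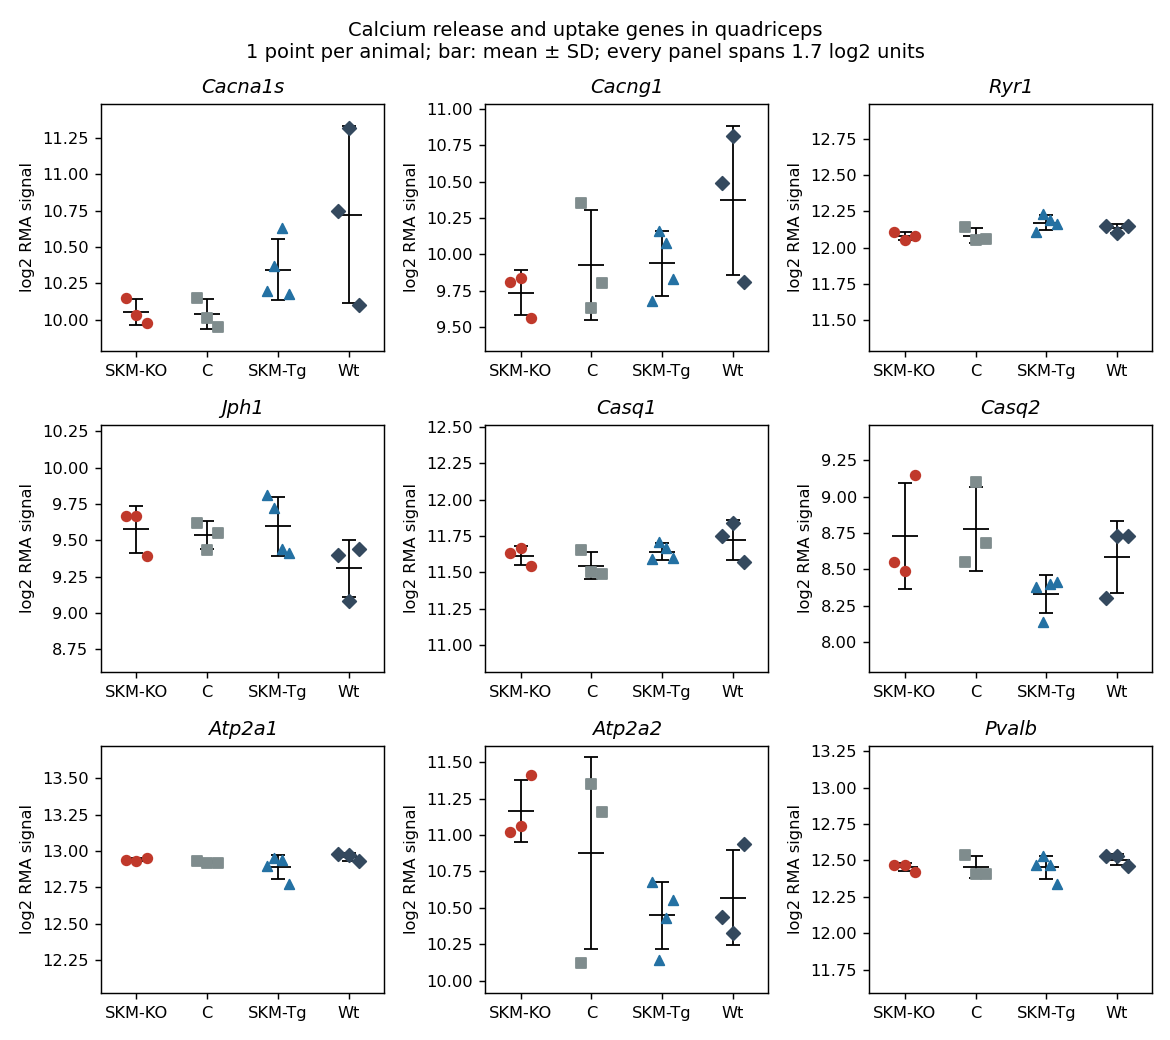
Log2 RMA signal of the 9 genes, 1 point per animal, by group (SKM-KO and C, n = 3 each; SKM-Tg, n = 4; Wt, n = 3), with the mean and SD as bars; every panel spans the same range, and the gene's brightest probe set is shown. Atp2a1, Pvalb and Ryr1 lie almost flat, while Atp2a2 in C and Cacna1s and Cacng1 in Wt spread widely.

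In the SKM-KO line the voltage sensor differed by about its spread or less. Cacna1s had 10.15, 10.03 and 9.98 in SKM-KO and 10.15, 10.01 and 9.95 in C, a difference of 0.02 (SE 0.08, 95% interval -0.17 to 0.20). The sets of values nearly coincide. Cacng1 had 9.81, 9.84 and 9.56 in SKM-KO and 10.35, 9.63 and 9.8 in C, where C animal 1 was the highest of the 6 (difference -0.19, SE 0.18, interval -0.62 to 0.24). Without C animal 1 the difference was 0.021, on the other side of 0. Both had an adjusted p of 1.0.

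In the SKM-Tg line the same subunits had the lowest differences of the 9 genes, and the spread of Wt was larger than either. Cacna1s had 10.2, 10.37, 10.63 and 10.18 in SKM-Tg and 10.75, 11.32 and 10.1 in Wt. Cacng1 had 9.68, 10.16, 10.08 and 9.83 in SKM-Tg and 10.49, 10.81 and 9.81 in Wt. In both genes Wt animal 2 was the highest array of all 13, Wt animal 1 came next, and Wt animal 3 lay within or below the SKM-Tg values. The difference was -0.38 for Cacna1s (SE 0.27, interval -0.99 to 0.23) and -0.43 for Cacng1 (SE 0.24, interval -0.98 to 0.11), each with a limma adjusted p of 0.938. Without Wt animal 2 these became -0.079 and -0.21, and without Wt animal 3 -0.69 and -0.71 (adjusted p = 0.306 for both).

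The release channel was read by 2 probe sets. The brighter Ryr1 probe set (1427306_PM_at) had 12.11, 12.05 and 12.08 in SKM-KO and 12.14, 12.05 and 12.06 in C. It had 12.11, 12.23, 12.19 and 12.16 in SKM-Tg and 12.15, 12.1 and 12.15 in Wt. Its 13 values lie within 0.18, or 1.13-fold, and the groups overlap in both lines. The SKM-KO minus C interval ran from -0.14 to 0.14 (0.906-fold to 1.1-fold) and the SKM-Tg minus Wt interval from -0.20 to 0.28. The other Ryr1 probe set, 1457347_PM_at, spanned 0.35 (1.27-fold) over the arrays and gave -0.04 in SKM-KO minus C and -0.02 in SKM-Tg minus Wt.

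Jph1, the tether of the junction, had the highest difference of the 9 genes in the SKM-Tg line. Its brighter probe set (1438428_PM_at) had 9.81, 9.72, 9.44 and 9.41 in SKM-Tg and 9.4, 9.08 and 9.44 in Wt. SKM-Tg animals 1 and 2 lay above all Wt animals and the other SKM-Tg animals did not, which gave 0.29 (SE 0.15, interval -0.06 to 0.64, limma adjusted p = 0.938). The other probe set (1421520_PM_at) had 8.37, 8.27, 8.08 and 7.61 in SKM-Tg and 7.98, 7.94 and 7.81 in Wt, a difference of 0.17 with SKM-Tg animal 4 below every Wt animal. In the SKM-KO line the probe sets did not point the same way. The brighter had 9.67, 9.67 and 9.39 in SKM-KO and 9.62, 9.43 and 9.55 in C (0.04, interval -0.19 to 0.28), and the other had 7.9, 8.02 and 7.92 in SKM-KO and 8.13, 8.08 and 8.01 in C (-0.13, interval -0.29 to 0.03).

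The calsequestrins, which hold the stored calcium, differed in how much they spread. Casq1 had 11.63, 11.67 and 11.54 in SKM-KO and 11.65, 11.5 and 11.49 in C (0.07, SE 0.07), and 11.59, 11.71, 11.67 and 11.6 in SKM-Tg and 11.75, 11.84 and 11.57 in Wt (-0.08, SE 0.12). Its 13 values covered a 1.28-fold range. Casq2 had 8.55, 8.49 and 9.15 in SKM-KO and 8.55, 9.1 and 8.68 in C, with SKM-KO animal 3 and C animal 2 above the rest, and the groups differed by -0.05 (SE 0.21, interval -0.54 to 0.45). In the SKM-Tg line Casq2 had 8.38, 8.14, 8.4 and 8.41 in SKM-Tg and 8.3, 8.73 and 8.73 in Wt. Of the Wt animals 2 lay above all SKM-Tg animals and the third lay among them, so the groups overlap (-0.26, SE 0.15, interval -0.60 to 0.08, limma adjusted p = 0.938). The Casq2 probe set ends in _s_at, a suffix that Affymetrix uses for probes matching more than 1 transcript.

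The fast-fibre pump and the buffer varied little in any group. Atp2a1 had 12.94, 12.93 and 12.95 in SKM-KO and 12.93, 12.92 and 12.92 in C. It had 12.9, 12.95, 12.94 and 12.77 in SKM-Tg and 12.98, 12.97 and 12.93 in Wt, where SKM-Tg animal 4 was the lowest array. Pvalb had 12.47, 12.47 and 12.42 in SKM-KO and 12.54, 12.41 and 12.41 in C. It had 12.47, 12.53, 12.47 and 12.34 in SKM-Tg, with animal 4 again lowest, and 12.53, 12.53 and 12.46 in Wt. The differences were 0.02 and 0.004 in SKM-KO minus C and -0.07 and -0.05 in SKM-Tg minus Wt for Atp2a1 and Pvalb in that order, with adjusted p from 0.941 to 1.0. Atp2a1 had the brightest of all non-control probe sets on each of the 13 arrays. Probe sets with a mean signal between 12 and 14 had a median SD of 0.075 over the arrays (87 probe sets), against 0.231 for those between 8 and 10 (4343 probe sets). A signal near the top of the scale can be compressed, and whether that held Atp2a1, Pvalb and Ryr1 flat was not tested.

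Atp2a2, the slow-fibre pump, had by its brightest probe set the highest difference of the 9 genes in SKM-KO minus C and the widest spread in C. It had 11.02, 11.06 and 11.41 in SKM-KO and 10.12, 11.35 and 11.16 in C. C animal 1 stood far below the other C animals, which lay among the SKM-KO animals. The difference was 0.28 (SE 0.30, interval -0.44 to 1.0, limma adjusted p = 1.0), and without C animal 1 it was -0.1. In the SKM-Tg line Atp2a2 had 10.68, 10.14, 10.43 and 10.55 in SKM-Tg and 10.44, 10.33 and 10.94 in Wt (-0.12, SE 0.19, interval -0.55 to 0.31), and without Wt animal 3 the difference was 0.066. The dimmer probe set 1437797_PM_at gave 0.22 (interval -0.52 to 0.95) in SKM-KO minus C and -0.19 (interval -1.07 to 0.70) in SKM-Tg minus Wt. Unlike the brightest, it spread most in Wt (4.8, 3.92 and 5.84, SD 0.96), against an SD of 0.61 in C. Slow-fibre markers spread over the same animals: their mean signal over 8 genes ranged from 11.52 to 11.95 in SKM-KO, 10.89 to 11.95 in C, 11.02 to 11.37 in SKM-Tg and 11.31 to 11.45 in Wt. All 8 passed the signal filter, Myh7, the slow myosin, with a mean of 11.33, and their part in the Atp2a2 values was not tested.

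**Figure D2:**
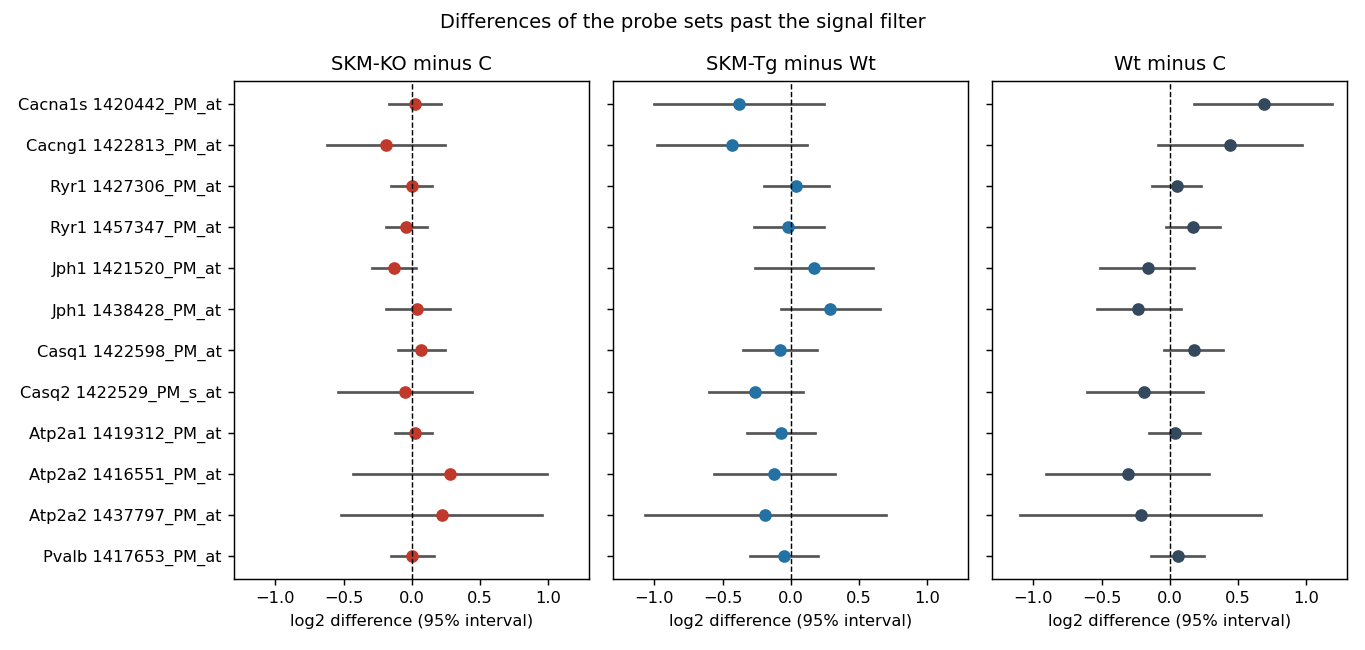
Log2 differences (points) with 95% intervals from limma (lines) for the 12 probe sets past the signal filter, for SKM-KO minus C, then SKM-Tg minus Wt, then Wt minus C. Every interval of the first 2 comparisons crosses 0, and the narrowest belong to Ryr1, Atp2a1 and Pvalb; in Wt minus C the interval of Cacna1s (0.69) lies above 0.

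The effects of the 2 lines were set against each other in a fit of all 13 arrays, as (SKM-Tg minus Wt) minus (SKM-KO minus C). None of the 9 genes passed (0 of 9 at an adjusted p under 0.05, against 0.0192% of all genes, and 0 of 9 at an unadjusted p under 0.05, against 3.1%). Of the 12 probe sets 0 were called (0.00444% of all probe sets), and 0 had an unadjusted p under 0.05 (2.71%). Atp2a2 and Cacna1s had the lowest values, -0.40 (SE 0.38, interval -1.22 to 0.42) and -0.40 (SE 0.32, interval -1.09 to 0.29), and Jph1 had the highest, 0.25 (SE 0.19). In SKM-KO minus C, 6 of the 9 differences were positive with a median of 0.02, where 54.0% of all genes were positive with a median of 0.01. In SKM-Tg minus Wt, 2 of the 9 were positive with a median of -0.08, where 37.8% of all genes were positive with a median of -0.05.

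Beyond the 9 genes, the rest of the calcium machinery was read in 5 lists, and limma called 0 of their 60 tested genes in either comparison. The release and triad genes (21 tested of 26 listed) had 4 positive differences in SKM-KO minus C, with a median of -0.03, and 11 in SKM-Tg minus Wt, with a median of 0.01. Their unadjusted p was nowhere under 0.05. Asph, which encodes junctin and junctate among its products, had -0.13 and 0.17 in SKM-KO minus C and SKM-Tg minus Wt in that order. Stac3, an adaptor of the voltage sensor, had -0.02 and 0.23, and Cacna2d1, its alpha-2-delta subunit, had -0.00 and 0.37. In Cacna2d1 the low array was again Wt animal 2, with 9.44 against 10.34 and 10.51 in the other Wt animals. Jph2, the junctophilin of heart and muscle, had -0.03 and -0.11. The paralogues Ryr2 and Ryr3 lay below the signal filter.

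The other uptake and pump regulator genes (7 tested of 15) had 5 positive differences in SKM-KO minus C, with a median of 0.03, and 1 in SKM-Tg minus Wt, with a median of -0.05. Pln, phospholamban, the inhibitor of Atp2a2, had 7.16, 7.21 and 7.36 in SKM-KO and 6.84, 6.96 and 7.21 in C. The groups touch at 7.21, and the difference was 0.24 (SE 0.11, interval -0.02 to 0.49, limma adjusted p = 1.0). Pln had 6.99, 7.26, 6.51 and 6.65 in SKM-Tg and 6.52, 6.21 and 6.91 in Wt (0.31, SE 0.23). Mrln, myoregulin, a peptide inhibitor of the muscle pump, had differences of -0.06 in SKM-KO minus C and -0.05 in SKM-Tg minus Wt. Atp2a3, the third SERCA gene, had 0.0 and -0.18, and Atp2c1, a pump of the Golgi, 0.04 and -0.10.

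The store-operated entry genes (5 tested of 7) refill the store from outside the fibre. In SKM-KO minus C 4 of the 5 were positive, with a median of 0.06, and in SKM-Tg minus Wt 0 of the 5, with a median of -0.22. Stim1, the calcium sensor of the reticulum, had 9.09 in each of the 3 SKM-KO animals and 8.98, 9.08 and 8.96 in C. Its groups do not overlap, by a small margin (0.09, SE 0.06, limma adjusted p = 1.0). In all, 2 of the 5 genes were without overlap in SKM-KO minus C, where 7.49% of all genes were. Of the other calcium lists, 2 of 9 mitochondrial genes and 1 of 21 release and triad genes were. For the 7 uptake and pump regulator genes and the 18 sensors and effectors the count was 0. Stim1 had 9.06, 9.11, 9.32 and 9.01 in SKM-Tg and 9.31, 9.82 and 8.9 in Wt (-0.22, SE 0.21). Orai1, the entry channel it opens, had 7.55, 7.53, 7.76 and 7.52 in SKM-Tg and 7.99, 8.72 and 7.4 in Wt (-0.45, SE 0.27, adjusted p = 0.938). In both genes Wt animal 2 was the highest array and Wt animal 3 the lowest, and among the Wt animals the order was that of Cacna1s and Cacng1.

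The mitochondrial calcium genes (9 tested of 12) had 7 positive differences in SKM-KO minus C, with a median of 0.04, and 2 in SKM-Tg minus Wt, with a median of -0.04. Micu3, a regulator of the mitochondrial uniporter, had 6.37, 6.13, 5.56 and 6.12 in SKM-Tg and 5.75, 4.7 and 6.51 in Wt (0.39, SE 0.39), and Wt animal 2 was the lowest array. The calcium sensors and effectors (18 tested of 20) had 7 and 6 positive differences, with medians of -0.02 and -0.08. Calr, calreticulin, had 0.08 in SKM-KO minus C and -0.40 in SKM-Tg minus Wt, and Nfatc1, a calcineurin target, had -0.02 and -0.30. None of these had an unadjusted p under 0.05.

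The fibre markers were read beside them because several members differ between fast and slow fibres. Of the 9 fast-fibre markers tested of 10, 5 were positive in SKM-KO minus C (median 0.02) and 1 in SKM-Tg minus Wt (median -0.07). Of the 8 slow-fibre markers tested of 9, 8 were positive in SKM-KO minus C, between 0.08 and 0.21 (median 0.15), and 1 was positive in SKM-Tg minus Wt (median -0.13). None was called, and none had an unadjusted p under 0.05 in either comparison. The 8 markers were read in the same 6 or 7 animals, so their signs are not 8 separate observations: Myh7 had 11.48, 11.42 and 11.89 in SKM-KO and 10.72, 11.97 and 11.72 in C, where C animal 1 is the low array, as it is for Atp2a2.

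**Figure D3:**
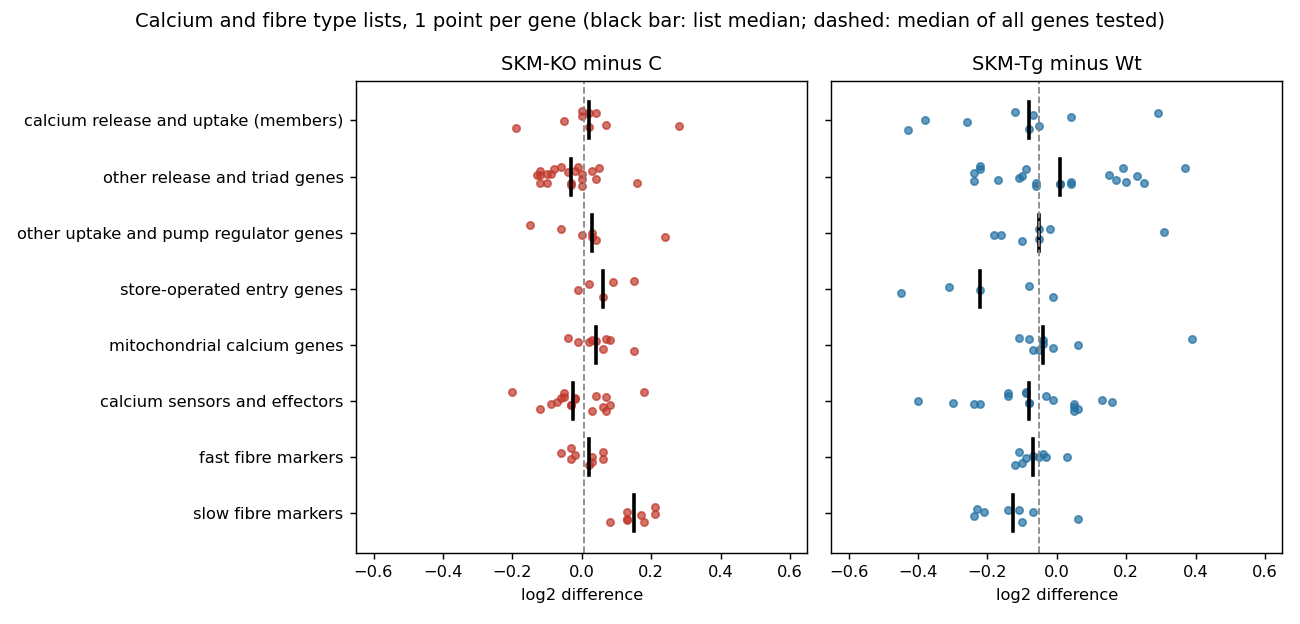
Log2 differences of the members, the other calcium lists and the fibre marker lists, 1 point per gene, in SKM-KO minus C and SKM-Tg minus Wt, with the list median as a black bar and the median of all genes tested as a dashed line. The slow-fibre points lie to the right of the dashed line in SKM-KO minus C (median 0.15), and the store-operated entry points have the lowest list median in SKM-Tg minus Wt (-0.22); no point was called.

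The control groups were compared with each other to show how far animals without the manipulation differed. In Wt minus C, 0 of the 9 genes were called (0.00961% of all genes), and 1 of the 9 had an unadjusted p under 0.05, where 27.8% of all genes did. The groups overlapped in all 9 genes, so 0 of the 9 were without overlap, against 23.9% of all genes. The gene under 0.05 was Cacna1s, with 10.75, 11.32 and 10.1 in Wt and 10.15, 10.01 and 9.95 in C, a difference of 0.69 (SE 0.23, interval 0.18 to 1.19, 1.61-fold, limma adjusted p = 0.145). This SE and interval rest on 1 spread shared by the 4 groups, although the SD was 0.61 in Wt and 0.1 in C. Wt animal 3 lay within the range of C, and without it Cacna1s was 1 (limma adjusted p = 0.00454) and Cacng1 was 0.72 (adjusted p = 0.019). These are 2 of the 9 genes (22.2%), where 39.6% of all genes were called without that animal, so the members' share lies below that of all genes. Without Wt animal 2 they were 0.39 and 0.22, with adjusted p of 0.531 and 0.744. At the probe set level 0 of 12 were called (0.0178% of all probe sets), and 1 of 12, that of Cacna1s, had an unadjusted p under 0.05 (25.8%). The groups were without overlap for 2 of the 12, where 22.9% of all probe sets were. One was Ryr1 1457347_PM_at, with 12.02, 12.12 and 11.93 in Wt and 11.92, 11.79 and 11.84 in C (0.17, adjusted p = 0.232). The other was Jph1 1421520_PM_at, with 7.98, 7.94 and 7.81 in Wt and 8.13, 8.08 and 8.01 in C (-0.16, adjusted p = 0.498). Outside the members, Mrln had 9.09, 8.83 and 9.6 in Wt and 10.22, 9.84 and 10.02 in C, with no overlap. Its difference of -0.85 (SE 0.22, limma adjusted p = 0.144) was the lowest of the uptake and pump regulator list. Of that list 5 of 7 genes had an unadjusted limma p under 0.05 and 2 were without overlap. The release and triad list had 7 of 21 for each, and the mitochondrial list 2 and 0 of 9. The sensors and effectors had 2 and 3 of 18, and the store-operated list 0 of 5 for each. Over all genes the shares were 27.8% and 23.9%. Line, cohort and any array batch cannot be told apart in this comparison.

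Several members spread widely over the arrays, a spread that mixes differences between groups with those between animals of a group. By the brightest probe sets, the SD within a group was highest in C for Atp2a2 (0.66) and in Wt for Cacna1s (0.61) and Cacng1 (0.51). In the other groups that of Cacna1s was 0.09 to 0.21. Over the 13 arrays Atp2a2, Cacna1s and Cacng1 covered ranges of 2.43-fold, 2.58-fold and 2.38-fold. Their SDs over all 13 arrays, 0.44, 0.39 and 0.37, stood at the 96.8th, 92.8th and 89.4th percentile among probe sets within 0.5 of their mean signal. Casq2 covered 2.02-fold, Jph1 1.66-fold and Casq1 1.28-fold. By the same percentile measure Casq2 stood at 65.7, Casq1 at 45.2, Jph1 at 43.2, Pvalb at 26.1, Ryr1 at 18.4 and Atp2a1 at 5.26. The members as a set were thus not all variable for their signal.

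**Figure D4:**
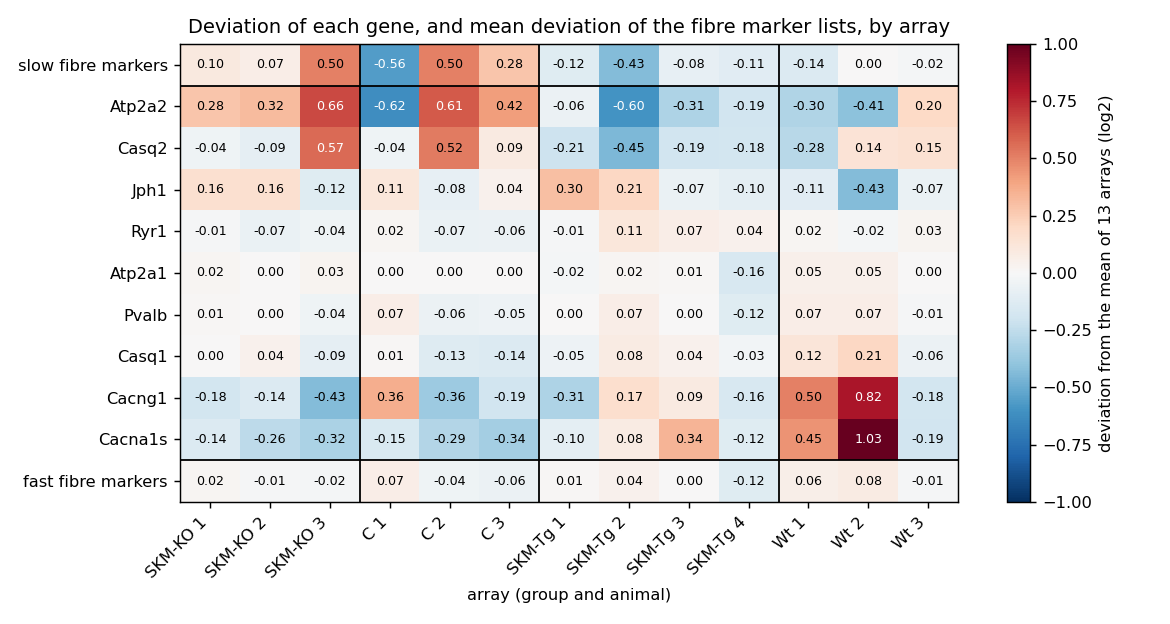
Deviation of each gene from its mean over the 13 arrays (log2, colour and number), by array, with the mean deviation of the slow-fibre and fast-fibre marker lists in the top and bottom rows. C animal 1 is low for Atp2a2 (-0.62) and the slow list (-0.56), SKM-KO animal 3 and C animal 2 are high for both, and Wt animal 2 is high for Cacng1 (0.82) and Cacna1s (1.03).

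Atp2a2 followed Myh7, the slow myosin, over the animals. Over 13 arrays Pearson's r was 0.92 (permutation p = 3e-05, adjusted over 5 relations 0.00015) and Spearman's rho was 0.85 (permutation p = 0.00048, adjusted 0.0024). Without C animal 2 and SKM-KO animal 3, the farthest from the median of Myh7, r was 0.86. Within SKM-KO and C it was 0.98 (6 arrays, exact permutation p = 0.0111), and within SKM-Tg and Wt 0.55 (7 arrays, exact permutation p = 0.222), with a rho of 0.07 there. In the SKM-Tg line Myh7 had 11.25, 10.8, 11.25 and 11.2 in SKM-Tg and 11.18, 11.23 and 11.18 in Wt, with SKM-Tg animal 2 below the other 6 animals.

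Casq2 followed the same axis less tightly. With Atp2a2 its r was 0.73 (permutation p = 0.00382, adjusted 0.00477) and its rho 0.59 (p = 0.037, adjusted 0.0462). Without SKM-KO animal 3 and C animal 2 r was 0.47, so the relation rests in large part on those animals, and it was 0.63 within SKM-KO and C and 0.55 within SKM-Tg and Wt. Casq2 with Myh7 had r 0.76 (permutation p = 0.00319, adjusted 0.00477) and rho 0.5 (p = 0.0816), and 0.43 without the farthest pair of arrays.

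The fast-fibre pair Atp2a1 and Pvalb had r 0.74 (permutation p = 0.00364, adjusted 0.00477) and rho 0.63 (p = 0.0248, adjusted 0.0462), over signals that spanned 0.21 and 0.19 in all. Without SKM-Tg animal 4 and C animal 2 r was 0.47. Within SKM-KO and C it was 0.06, and within SKM-Tg and Wt 0.95 (exact permutation p = 0.00714), so the pooled relation rests on the SKM-Tg line. After quantile normalization of the arrays r was 0.63 (permutation p = 0.0774), which no longer passed. Atp2a1 with Casq1 had r 0.37 (permutation p = 0.21) and rho 0.59 (p = 0.0356, adjusted 0.0462), with 0.31 without the farthest arrays, 0.17 within SKM-KO and C and 0.62 within SKM-Tg and Wt.

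All 36 pairs of the 9 genes were then read in the same way, a step added after the values were seen. In all, 11 pairs, 7 positive and 4 negative, had a Pearson permutation p under 0.05 after adjustment over the 36. The share of pairs among all genes that would pass was not computed, so this count cannot be called particular to these genes. The strongest tied Casq1 to the voltage sensor: r was 0.88 with Cacng1 (permutation p = 7e-05, adjusted 0.00126, rho 0.89) and 0.87 with Cacna1s (permutation p = 7e-05, adjusted 0.00126, rho 0.81), and Cacna1s with Cacng1 had 0.87 (adjusted 0.00768, rho 0.73). Without Wt animals 1 and 2 these were 0.69, 0.67 and 0.56. Within SKM-KO and C they were 0.57, 0.76 and 0.67, and within SKM-Tg and Wt 0.98, 0.94 and 0.95. Pvalb joined Casq1 and Cacng1 at 0.74 each (adjusted 0.0166), and 0.84 each without SKM-Tg animal 4 and C animal 2.

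Atp2a2 ran against Cacng1, Casq1 and Ryr1. With Cacng1 its r was -0.77 (permutation p = 0.00158, adjusted 0.0142) and its rho -0.85 (adjusted 0.0081). It was -0.87 without Wt animals 1 and 2, -0.99 within SKM-KO and C and -0.61 within SKM-Tg and Wt. With Casq1 r was -0.71 (adjusted 0.0211, rho -0.73) and with Ryr1 -0.76 (adjusted 0.0166, rho -0.71). Within SKM-KO and C the r with Ryr1 was -0.82, within SKM-Tg and Wt -0.39, and after the group means were removed -0.61. With Cacna1s (r -0.61, adjusted 0.053) and Pvalb (r -0.63, adjusted 0.0612) Atp2a2 did not pass. Ryr1 with Casq2 had -0.69 (adjusted 0.0284, rho -0.63), with -0.42 within SKM-KO and C, -0.63 within SKM-Tg and Wt and -0.43 after the group means were removed. All 11 pairs had the same sign of r after median centring and after quantile normalization of the arrays, but 4 of them shrank by more than 1.5 times. Ryr1 with Casq2 was -0.41 after median centring. After quantile normalization Atp2a2 with Ryr1 was -0.5, Casq1 with Pvalb 0.48 and Cacng1 with Pvalb 0.46. Jph1 was in none of the 11 pairs.

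**Figure D5:**
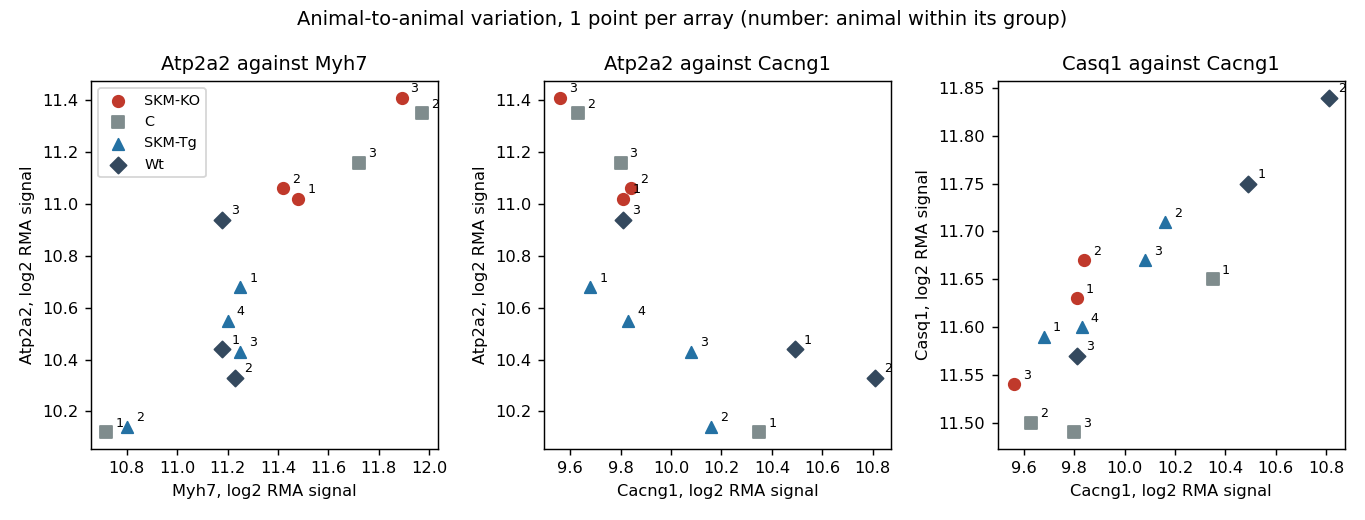
Log2 RMA signals of Atp2a2 against Myh7, Atp2a2 against Cacng1 and Casq1 against Cacng1, 1 point per array, marked by group and numbered by animal. Atp2a2 rises with Myh7 (r 0.92) and falls with Cacng1 (r -0.77), and Casq1 rises with Cacng1 (r 0.88), with Wt animals 1 and 2 at the upper right.

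The genes whose values were most like each member's were found by Pearson's r over the 13 arrays after the group means were removed, among all genes tested other than the members. These are ranked descriptions and carry no p. Atp2a2 was most like Tpm3, a tropomyosin on the slow-fibre list (0.976), and Nnt (0.965). Atp2a1 was most like Acta1, skeletal actin (0.973), and Tspan32 (0.929), and Pvalb most like Nfasc (0.933) and Myh4, the fastest myosin (0.932). Casq1 and Cacng1, which had 0.97 with each other, shared their nearest gene outside the members, Cacng6, another gamma subunit of calcium channels (0.987 and 0.972). The next outside the members was Ppm1l (0.962) for Casq1 and Stat5b (0.964) for Cacng1. Cacna1s was most like Asb16 (0.993) and Fbxl15 (0.991), and Jph1 most like Prkab2 (0.94) and Phkb (0.939). On this measure Cacna1s had 0.84 with both Casq1 and Cacng1, below its values with those genes outside the members. Casq2 was nearest to Nes (0.908) and Ttc12 (0.869), and Ryr1, by its brighter probe set, to BC002059 (0.867) and Foxh1 (0.862).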

How the data were processed

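The authors deposited RMA signals on the log2 scale for 45141 probe sets and 13 arrays, per the submitters' processing notes; no version, scan date or strip is given. An array has no read depth, and the number of animals limits the precision. The labels describe 1 array per animal without saying that the animals were littermates or unrelated. The limma p-values weigh a difference against the spread between these arrays. The permutation p-values over 13 arrays treat the arrays as exchangeable, although they come from 4 groups. After 104 control probe sets were set aside, 28898 probe sets with exactly 1 gene symbol gave 17097 genes, each read from its probe set with the highest mean; 551 with several symbols and 15588 with none were left out of gene tests. Genes with a mean of at least 4.904 were tested (10411). limma 3.58.1 in R 4.3.3 (lmFit, eBayes) was fitted to each line alone for SKM-KO minus C and SKM-Tg minus Wt, and to all 13 arrays for the difference of effects and Wt minus C. Separate fits were chosen because earlier work on these data had found unequal spread. Tests were two-sided, with Benjamini-Hochberg adjustment over all genes or probe sets and a threshold of 0.05. Correlations used 100000 permutations, or exact enumeration within lines, in scipy 1.17.1; 5 of 8 planned relations were computed, since the other 3 involve Sln. Named were all members, the up to 4 genes of each list with the smallest p in each comparison, the paralogues Atp2a3, Ryr2, Ryr3 and Jph2, Pln, the myosins, and the 2 nearest genes per member; of these the text gives values for a selection. The members and lists were chosen with earlier results of these data known. Promoter windows came from RefSeq, GRCm38.p6.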

Additional observations from a re-analysis of the deposited data

Results flagged for a closer look

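In the group of 4, SKM-Tg, 1 animal stood far from the other 3, by the ratio of its gap to the group's range, in 7 of 62 features screened, and chance flags about 1 group in 20. SKM-Tg animal 2 was low in Casq2, at 8.14 against 8.38 to 8.41 in the other SKM-Tg animals, and in Myh7, at 10.8 against 11.2 to 11.25. SKM-Tg animal 4 was low in the fast-fibre markers Mylpf, at 11.83 against 11.99 to 12.02, and Tnnc2, at 12.32 against 12.56 to 12.6. Its array also had the lowest top signal of the 13, controls included (13.131, the others 13.166 to 13.211). Whether the scale of that array lowered its bright probe sets, Atp2a1 and Pvalb among them, was not tested. SKM-Tg animal 3 was high in Orai1, at 7.76 against 7.52 to 7.55, and in S100a1, a calcium-binding protein that acts on the release channel, at 9.96 against 9.42 to 9.5. SKM-Tg animal 1 was high in Ryr2, at 4.78 against 4.5 to 4.54, below the signal filter.

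The effect on Trp53inp2 differed between the lines by 2.29 on the log2 scale (limma adjusted p = 0.000216), with the fall in SKM-KO minus C and no rise measured in SKM-Tg minus Wt.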

How the results depend on the processing

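Neither line nor the difference of effects had any of the 9 genes called under the alternatives run: median centring, quantile normalization, no filter, a stricter filter (a mean of 6.651, the 75th percentile), averaged probe sets, weights per line, array quality weights, a trended and robust eBayes, the joint fit and leaving out each animal. In these comparisons at most 0.0213% of all genes were called, except with array quality weights. Those called 5.52% of all genes in SKM-Tg minus Wt and 4.74% in the difference of effects, shares at which 0 of 9 says little. With them Cacng1, Cacna1s and Jph1 lay near the threshold in SKM-Tg minus Wt (limma adjusted p = 0.055, 0.0651 and 0.0918). In Wt minus C, array quality weights called 58.6% of all genes and 5 of the 9 members (55.6%), about the same share: Cacna1s 0.74 (adjusted p = 1.84e-05), Cacng1 0.66 (0.000415), Casq1 0.24 (0.00138), Atp2a2 -0.63 (0.00509) and Casq2 -0.48 (0.00929), and 6 of the 12 probe sets (50%, against 58.7% of all probe sets). Leaving out 1 animal gave 0 to 2 called genes and 0 to 2 called probe sets there, the 2 genes (22.2%) without Wt animal 3, where 39.6% of all genes were called. Over all genes, those weights called 575 in SKM-Tg minus Wt (0 in the main setting), 493 in the difference of effects (2) and 6098 in Wt minus C (1). The difference of effects had 1 gene called under median centring, under the stricter filter and under weights per line. Wt minus C had 0 called under quantile normalization, without a filter and under weights per line, and 2 under the mean of probe sets, as had SKM-KO minus C (1 in the main setting). Leaving out 1 animal gave 1 to 1 genes called in SKM-KO minus C, 0 to 2 in SKM-Tg minus Wt, 1 to 2 in the difference of effects and 0 to 4119 in Wt minus C, with the 2 and the 4119 both found without Wt animal 3; the cause was not tested.

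Signs turned for several members, the highest and lowest differences of SKM-KO minus C among them when C animal 1 was left out (Atp2a2 and Cacng1). Ryr1 in SKM-KO minus C was 0.00035 after median centring, 0.00048 after quantile normalization and 0.0097 with array weights. After quantile normalization Atp2a1 was 0 in both SKM-KO minus C and, from the joint fit, Wt minus C, since its probe set ranked 2 among all probe sets, controls included, on the 9 arrays of SKM-KO, C and Wt and so received 1 value there. It ranked 5 on the array of SKM-Tg animal 4, and was -0.04 in SKM-Tg minus Wt and in the difference of effects. Pvalb was then -0.0096, 5e-04 and -0.0013 in SKM-KO minus C, the difference of effects and Wt minus C, and r of Atp2a1 with Casq1 was -0.023. The mean of probe sets gave -0.043 for Jph1 in SKM-KO minus C. Leaving out 1 animal gave SKM-KO minus C ranges that cross 0 for Pvalb (-0.019 to 0.046), Ryr1 (-0.018 to 0.028), Atp2a2 (-0.1 to 0.52), Cacna1s (-0.031 to 0.072), Cacng1 (-0.34 to 0.021), Jph1 (-0.0089 to 0.14) and Casq2 (-0.26 to 0.12), and in SKM-Tg minus Wt for Atp2a2 (-0.24 to 0.066). After quantile normalization r of Atp2a1 with Pvalb was 0.63 (permutation p = 0.0774). No paired analysis was possible because the labels give the groups no shared replicate numbers. Whether signals near the top of the scale were compressed was not tested.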
